A study of Mus musculus with 12 samples.

Results

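Immunoglobulin transcripts were followed here through the RNA-seq libraries of 12 mice, 3 in each of 4 groups. The genes were chosen by symbol: every heavy-chain variable (Ighv), diversity (Ighd) and joining (Ighj) segment, every kappa (Igkv, Igkj) and lambda (Iglv, Iglj, Iglc) segment, the kappa constant region Igkc and the heavy constant regions Ighm, Ighd, Ighe, Igha and Ighg, with at least 10 reads summed over the 12 libraries. Of 395 annotated genes with such a symbol, 289 had at least 1 read and 234 reached the minimum, out of 50600 gene IDs in the deposited counts. The 234 genes comprised 119 Ighv, 96 Igkv, 8 heavy constant, 4 Ighj, 3 Iglv, 3 Iglc and 1 Iglj gene (Iglj1, 41 reads in all). None of the 20 annotated heavy D segments, whose longest measures 29 bases against reads of 50 bases, had a read.

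Control thymocytes (Ctrl) came from DNMT1 fl/fl mice of 20 to 25 weeks, whose Dnmt1 alleles carry loxP sites but which lack Cre. KO thymocytes came from DNMT1 fl/fl CD4-CRE mice of 20 to 21 weeks, in which Cre under the Cd4 promoter deletes the DNA methyltransferase Dnmt1 in T cells. ALK samples were T cell lymphoma cells of NPM-ALK+ mice of 22 to 31 weeks, which carry the human fusion kinase NPM-ALK under the T cell-specific Cd4 enhancer and promoter, and ALKKO thymocytes came from mice of 19 to 25 weeks with both the transgene and the deletion. The Cd4 promoter drives both the Cre and the transgene in T cells, whereas immunoglobulins are products of B cells. Fewer B-lineage cells and less immunoglobulin RNA per cell cannot be told apart in bulk RNA. Of the 12 mice, 11 were male and the second KO mouse (KO2) was female, and whole tissue was homogenized for extraction, so RNA of all its cells entered the libraries. The mice were of mixed C57Bl/6xSV/129 background, while the immunoglobulin genes are annotated here on the C57BL/6 assembly GRCm38, from which alleles of the other strain can differ.

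An immunoglobulin is built from a heavy and a light chain, each with a variable end that binds antigen and a constant end that sets the class. In developing B cells, the RAG recombinase joins 1 V, D and J segment of the heavy-chain locus and 1 V and J segment of a light-chain locus, and the joined exon is spliced to the constant region downstream. Naive B cells use Ighm and Ighd (IgM and IgD), while class switch recombination brings Ighg, Ighe or Igha (IgG, IgE, IgA) next to the joined exon. The descendants of 1 B cell share 1 heavy and 1 light V segment, and plasma cells, the antibody-secreting end stage, hold far more immunoglobulin mRNA than other B cells. A normal thymus contains a small resident B cell population, and immature T cells can transcribe the unrearranged heavy-chain constant locus.

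The variable segments of the 234 genes lay in 3 loci, for heavy chains on chromosome 12, for kappa on chromosome 6 and for lambda on chromosome 16. All 119 Ighv genes lay on the minus strand of chromosome 12, the same strand as the constant regions, whereas 59 of the 96 Igkv genes on chromosome 6 lay on the minus strand and 37 on the plus strand. In each thymus library 1 heavy and 1 kappa V gene took the largest number of reads of its class, and 5 of these leading genes took more than 25% of them. The last 90 germline bases of their V exons are shown because reads of these genes set the differences between mice described further on. Sequences are GENCODE M21 transcripts on GRCm38, printed 5′ to 3′ in the sense of the gene. Capitals mark the codon of the last in-frame cysteine, the conserved residue at which the third complementarity-determining region begins.
Ighv3-2 (leading in KO2, chr12:114033803-114033892, minus strand): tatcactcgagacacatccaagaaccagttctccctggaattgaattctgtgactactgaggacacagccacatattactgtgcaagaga
Ighv5-9 (leading in ALKKO2, chr12:113661769-113661858, minus strand): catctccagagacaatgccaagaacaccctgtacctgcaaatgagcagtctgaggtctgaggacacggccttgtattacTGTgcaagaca
Igkv14-111 (leading in KO2, chr6:68256780-68256869, plus strand): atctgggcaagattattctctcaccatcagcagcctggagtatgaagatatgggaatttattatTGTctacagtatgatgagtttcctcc
Igkv15-103 (leading in Ctrl2, chr6:68437836-68437925, plus strand): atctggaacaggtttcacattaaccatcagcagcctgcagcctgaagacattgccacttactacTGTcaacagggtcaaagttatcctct
Igkv4-68 (leading in ALKKO2, chr6:69304834-69304923, minus strand): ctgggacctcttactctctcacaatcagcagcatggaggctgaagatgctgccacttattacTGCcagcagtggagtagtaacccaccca
Ighv3-2 is annotated as a pseudogene with no reading frame, so none of its codons is marked. Of the 218 V genes, 40 had a sequence whose every window of 50 bases was unique among the GENCODE transcripts and 27 had less than 50% of their windows unique (median 78.8%). All windows of Igkv14-111 and Igkv15-103 were unique, against 86.2% for Ighv5-9, 67.0% for Ighv3-2 and 51.3% for Igkv4-68.

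The members were chosen by their reads summed over all libraries, so their presence in the list is not a result, and the library with most reads weighed most in the choice. Just below the minimum lay Igkv4-60 with 8 reads and Ighv1-62-1, Igkv4-71 and Igkv4-77 with 9 reads each. Just above it lay Ighv1-45 with 10 reads, Ighv1-37 with 11 and Ighv1-23 and Ighv1-79 with 12. Without the reads of KO2, 16 members would have fallen below 10 reads, and without the whole KO group 23 would have.

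Reads assigned to genes ranged from 12473857 to 18864327 per library. The labels were checked with the targeted genes: Dnmt1 had 400 to 487 CPM (counts scaled to the library size, with edgeR's TMM factors) in Ctrl, 206 to 244 in KO and 205 to 244 in ALKKO, and Alk had 34.9 to 55.0 CPM in ALK and ALKKO and at most 0.43 in Ctrl and KO. The labelled cell type was also checked: the 15 T cell marker genes summed to 11923 to 17120 CPM in 8 thymus libraries, to 6126 CPM in KO2 and to 4554 to 5908 CPM in ALK. The level of KO2 in T cell markers puts its label as thymocytes in doubt, and it stood apart from the other thymus libraries in most results below, so values of KO are given with and without it. In KO2 the 18 B cell markers summed to 4361 CPM, against 145 to 270 CPM in the 8 other thymus libraries, and the 10 thymic epithelial markers to 295 CPM, against 1440 to 2404 CPM.

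In control thymocytes, immunoglobulin transcripts were a small part of the RNA. The 234 genes summed to 2875 CPM in Ctrl1, 3230 CPM in Ctrl2 and 1736 CPM in Ctrl3. In KO they summed to 3926 CPM in KO1, 56376 CPM in KO2 and 1845 CPM in KO3, and in ALKKO to 2710 CPM in ALKKO1, 6234 CPM in ALKKO2 and 4822 CPM in ALKKO3. In ALK they summed to only 73.7, 47.2 and 149 CPM. KO2 therefore lay 18.5-fold above the median of the 8 other thymus libraries and 9.04-fold above the highest of them, and the lowest thymus library lay 11.6-fold above the highest ALK library. As a share of all reads on genes, immunoglobulin genes took 5.14% in KO2, 0.179% to 0.623% in the 8 other thymus libraries and 0.00434% to 0.0144% in ALK. The group means were 2614 ± 780 CPM for Ctrl (SD, n = 3), 20716 ± 30900 for KO, 4589 ± 1774 for ALKKO and 89.995 ± 52.8 for ALK, and the mean of KO without KO2 was 2886 CPM.

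**Figure D1:**
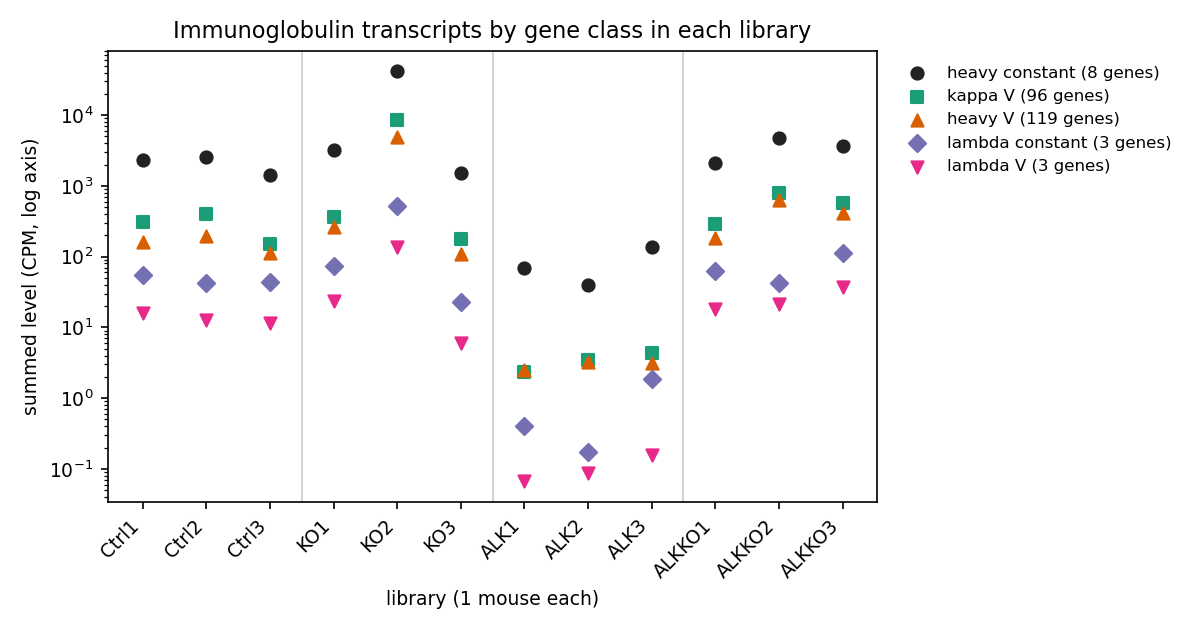
Summed level of immunoglobulin genes by class, in CPM on a log axis, for each of the 12 libraries, with 1 symbol per class and grey lines between the groups. Heavy constant regions stood highest in every library, KO2 lay above all other libraries in each of the 5 classes drawn, and in these the 3 ALK libraries lay below all thymus libraries.

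Heavy constant regions carried most of the signal. They held 2314, 2563 and 1410 CPM in Ctrl, 3179, 41715 and 1517 CPM in KO, 2128, 4684 and 3658 CPM in ALKKO and 68.3, 39.7 and 139 CPM in ALK. Kappa V genes followed with 153 to 794 CPM in the 8 thymus libraries other than KO2, 8542 CPM in KO2 and 2.35 to 4.38 CPM in ALK. Heavy V genes held 110 to 625 CPM, 4954 CPM and 2.49 to 3.23 CPM in the same order. In each V and constant class KO2 stood at the top and the ALK libraries at the bottom.

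The kappa constant region could not be measured in these counts. Igkc (chr6:70726435-70726966, plus strand) and all 5 Igkj segments were listed at 0 in all 12 libraries, although the Igkv genes together had up to 99193 reads in 1 library. All of them lie on the same strand inside the non-coding gene Gm30211 (chr6:70719074-70740554), and 236 of 238 protein-coding genes that lie between the exons of another gene on the same strand were also at 0, against 2708 of 20571 protein-coding genes that lie inside no other gene. When whole gene bodies are counted, a read over such a gene belongs to more than 1 gene and is set aside as ambiguous. Ambiguous reads came to 5.67% of the reads on genes in KO2 and to 2.88% to 4.04% in the other libraries. Gm30211 itself had 13102 reads in KO2, 476 to 3022 in the 8 other thymus libraries and 8 to 16 in ALK. The 0 of Igkc and Igkj was thus no measure of kappa light chains, which are described by their V genes only.

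The isotypes were compared within each library as reads per exon length. Ighm, the mu constant region of IgM (chr12:113418558-113422730), took the largest share in 11 of 12 libraries: 49.6%, 55.4% and 70.9% in Ctrl, 68.8% and 60.2% in KO1 and KO3, 45.3%, 62.0% and 53.4% in ALKKO and 85.0%, 61.04% and 87.9% in ALK. In KO2 it took only 9.57%, behind Ighg2c with 34.6%, Ighg1 with 24.2% and Igha with 23.1%. The order of these isotypes depended on the division by length. By undivided reads KO2 had 29.98% Ighg1, 29.44% Igha, 21.96% Ighg2c and 8.63% Ighm. The annotated exons of Ighg2c span 1326 bases, against 2592 for Ighg1 and 2668 for Igha. The switched isotypes together, meaning all but Ighm and Ighd, came to 88.8% in KO2, 27.8% to 54.1% in the 8 other thymus libraries and 9.87% to 38.1% in ALK. The summed switched share was thus highest in KO2, although Ighg2b (3.63%), Ighg3 and Ighe took larger shares in other libraries.

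**Figure D2:**
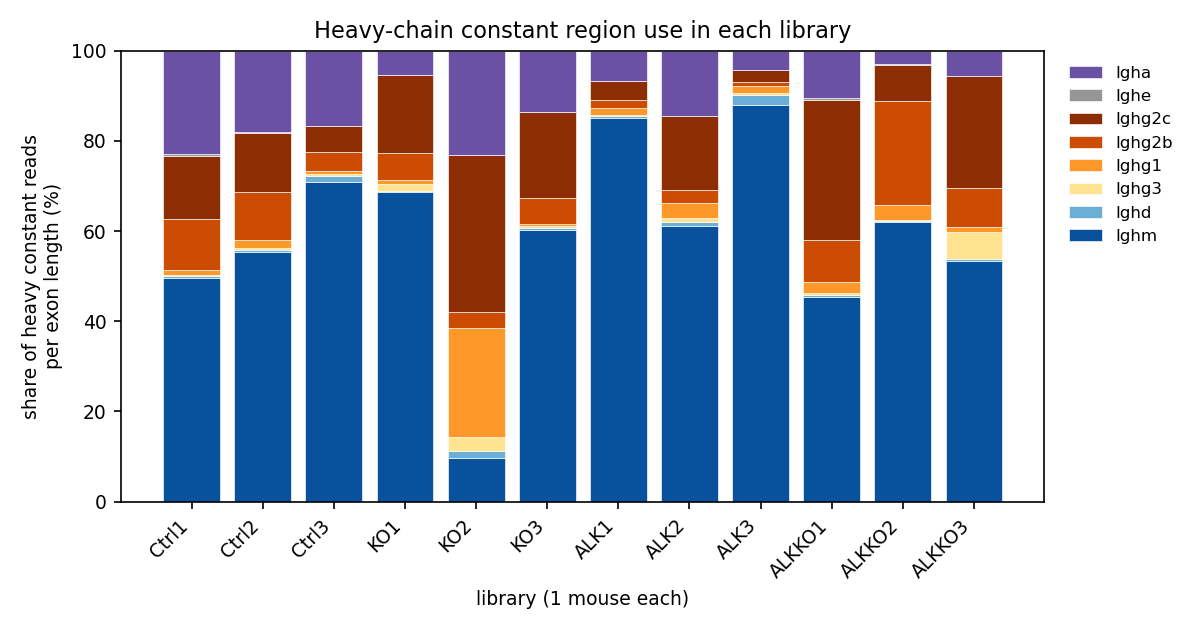
Stacked bars of the share of each heavy constant region in the heavy constant reads of each library, as a percentage of reads per exon length. Ighm fills 45.3% to 87.9% of each bar except that of KO2, where it fills 9.57% and Ighg2c, Ighg1 and Igha fill most of the bar.

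Isotypes behind Ighm varied between mice. Igha, which encodes the heavy chain of IgA, came second in all 3 Ctrl libraries with 23.0%, 18.1% and 16.6%. In KO1, KO3, ALKKO1 and ALKKO3 the second isotype was Ighg2c, an IgG2 constant region of C57BL/6 mice, with 17.4%, 19.1%, 31.2% and 24.8%, and in ALKKO2 it was Ighg2b with 23.2%. The mice were of mixed background, and the part of strain alleles in the Ighg2c shares was not tested. Igha took 10.4%, 2.85% and 5.62% in ALKKO, so the 3 ALKKO libraries lay below the 3 Ctrl libraries in this share, while KO2 (23.1%) lay above and KO1 and KO3 (5.28% and 13.5%) below them. By undivided reads, Igha rather than Ighg2c came second in KO3 (18.6% against 13.0%). Its undivided share in KO2 (29.44%) did not exceed that in Ctrl1 (29.45%). An exact two-sided permutation test on 3 against 3 mice cannot give a p below 0.1, so none was called from these shares. Ighg3 took 0.252% to 1.43% in 10 libraries but 6.05% in ALKKO3 and 3.12% in KO2. Ighd, which is spliced from the same transcript as Ighm, took 0.104% to 1.63% in the thymus libraries and 0.502% to 2.22% in ALK. Ighe, the constant region of IgE, took at most 0.45% anywhere and had no read in ALK, which allows up to 3 reads per library.

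Light chains were largely kappa. Lambda V genes took 1.58% of light-chain V reads in KO2 (95% Wilson interval 1.51 to 1.66), the lowest share, and 7.02% in Ctrl3 (6.16 to 7.98), the highest. The other thymus libraries lay between them, with 4.86% and 3.11% in Ctrl1 and Ctrl2, 6.22% and 3.30% in KO1 and KO3 and 5.84%, 2.59% and 6.26% in ALKKO. In ALK only 1, 1 and 2 lambda V reads were counted among 36, 41 and 58 light-chain V reads, so the share could not be told apart from that of any thymus library. Iglv1 led the 3 lambda V genes in each thymus library with shares from 45 of 90 reads in KO3 to 77.3% in KO1. Of the lambda constant regions, Iglc1 stood above Iglc2 in all 3 Ctrl mice, KO1, ALKKO1 and ALKKO3 (65.5 against 36.0 CPM in ALKKO3). In KO2 and ALKKO2 Iglc2 (269 and 26.5 CPM) stood above Iglc1 (134 and 13.4 CPM), and in KO3 they were nearly level (8.36 and 8.29 CPM). These values were not divided by gene length.

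The use of V genes differed between mice. Among heavy V genes, the 9 thymus libraries had 9 different leading genes: Ighv8-8 in Ctrl1 (4.82% of heavy V reads), Ighv1-26 in Ctrl2 (7.70%), Ighv1-19 in Ctrl3 (9.41%), Ighv1-53 in KO1 (9.50%), Ighv3-2 in KO2 (32.3%), Ighv5-17 in KO3 (13.5%), Ighv9-3 in ALKKO1 (8.15%), Ighv5-9 in ALKKO2 (39.2%) and Ighv7-3 in ALKKO3 (17.4%). Among kappa V genes, 7 led: Igkv16-104 in Ctrl1 (10.1%), Igkv15-103 in Ctrl2 (31.1%), Igkv1-110 in Ctrl3 (15.1%), Igkv3-12 in KO1 (9.80%), Igkv4-68 in ALKKO2 (28.7%), Igkv8-24 in ALKKO3 (13.4%) and Igkv14-111 in KO2 (69.0%), KO3 (19.4%) and ALKKO1 (17.0%). The same gene led in all 27 pairs of library and V class when reads were divided by exon length. Some leads were narrow. In Ctrl1, Ighv8-8 had 148 reads against 135 of Ighv1-80, and Igkv16-104 had 590 against 573 of Igkv14-111. Ighv1-26 had 277 against 251 of Ighv3-6 in Ctrl2, and Ighv5-17 had 220 against 197 of Ighv1-12 in KO3. Igkv14-111 came second in Ctrl1 and Ctrl2.

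**Figure D3:**
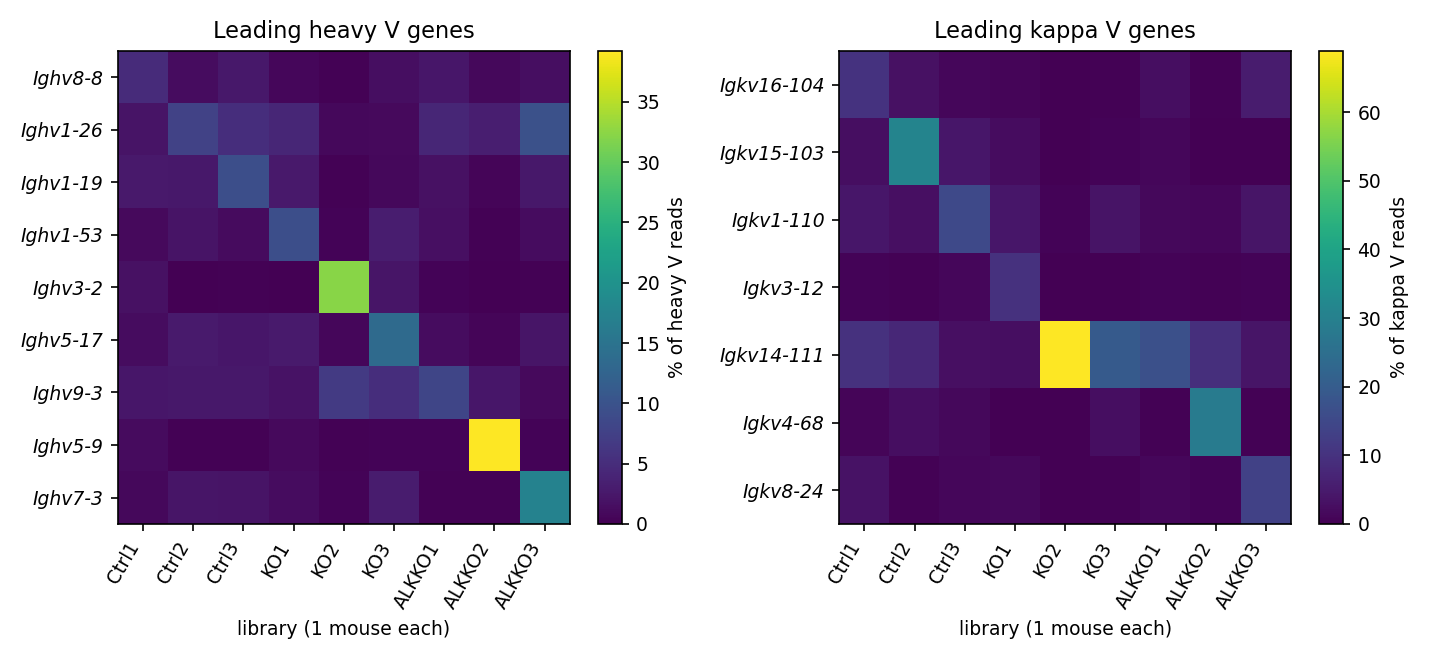
Heat maps of the share of heavy (left) and kappa (right) V reads that each leading V gene took in each thymus library, in percent, with genes in rows and libraries in columns. Each leading heavy V gene led in 1 library, up to 39.2% for Ighv5-9 in ALKKO2, and Igkv14-111 led in 3, up to 69.0% in KO2.

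The degree of concentration also differed between mice. It was summarised as the effective number of V genes, which is the number of equally used genes that would give the same inverse Simpson index. For heavy V genes it was 49.9, 31.0 and 33.03 in Ctrl, 28.4, 7.06 and 19.6 in KO and 31.4, 5.22 and 14.5 in ALKKO. For kappa V genes it was 27.5, 8.75 and 21.6 in Ctrl, 28.1, 2.03 and 16.8 in KO and 16.1, 6.96 and 21.3 in ALKKO. KO2 and ALKKO2 had the lowest heavy numbers and, with Ctrl2, the lowest kappa numbers. For heavy V genes the 3 KO mice lay below the 3 Ctrl mice, and ALKKO overlapped with both; for kappa V genes all 3 groups overlapped. Thinned to the 1626 heavy V reads of the shallowest thymus library, 70.5 (ALKKO2) to 108 (Ctrl1) heavy V genes were seen, and KO2, with the second lowest effective number, still showed 85.5.

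**Figure D4:**
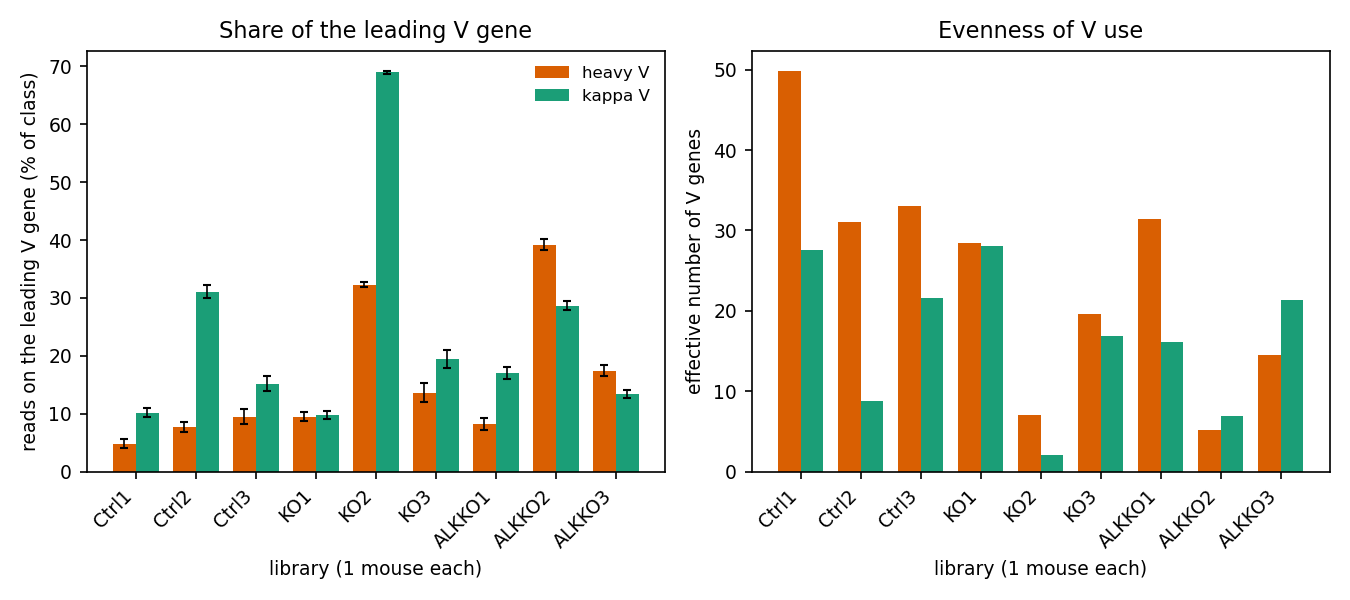
Left, share of heavy and kappa V reads on the leading V gene in each thymus library, in percent, with 95% Wilson intervals that cover counting error only; right, effective number of V genes (inverse Simpson index). Ctrl1 spread its heavy V reads over most genes (49.9), and KO2 its kappa V reads over fewest (2.03).

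In KO2 the reads of 1 heavy V family were far above those of all other mice. The Ighv3 family took 58.6% of heavy V reads in KO2 against 0.651% to 8.99% in the other thymus libraries. Ighv3-2 had 18596 reads in KO2 and 1 to 54 in the other thymus libraries, Ighv3-6 had 8027 against 28 to 337, Ighv3-1 had 4009 against 1 to 41 and the annotated pseudogene Ighv3-7 had 1682 against 0 to 11. Ighv3-1 was 94.5% and Ighv3-6 was 93.2% identical to Ighv3-2 over the aligned V exon, and Ighv3-7 was 88.3% identical. The last 160 bases of Ighv3-2 and Ighv3-6 are shown with the bases that differ between them in capitals, because a read of 50 bases can be placed on either only where it covers such a base.
Ighv3-2 (chr12:114033803-114033962): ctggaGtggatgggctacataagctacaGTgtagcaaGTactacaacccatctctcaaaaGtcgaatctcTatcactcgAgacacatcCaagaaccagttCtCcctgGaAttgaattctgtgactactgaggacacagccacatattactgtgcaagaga
Ighv3-6 (chr12:114288152-114288311): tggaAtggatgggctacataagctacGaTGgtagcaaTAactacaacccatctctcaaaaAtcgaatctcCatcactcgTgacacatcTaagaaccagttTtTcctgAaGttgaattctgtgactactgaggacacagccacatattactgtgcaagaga
Since the mice were of mixed background, reads of an allele that the C57BL/6 annotation lacks could be counted on its nearest relative there, so the reads on the pseudogene Ighv3-2 may belong to another Ighv3 gene, and how the reads divide among the Ighv3 genes is uncertain. Heavy V reads also came from 18 annotated pseudogenes in all, with 24453 reads over the 12 libraries, of which Ighv3-2 held 18729.

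The light chain of KO2 was similarly concentrated. Igkv14-111 had 68409 reads in KO2, or 5891 CPM, against 4.26 to 73.1 CPM in the 8 other thymus libraries. Igkv12-46 came second with 11861 reads, and the sequences of both genes were 73.2% identical. The 5 leading kappa genes took 87.1% of kappa V reads in KO2 and 31.3% to 72.0% in the other thymus libraries. The rest of the kappa repertoire was present in KO2 too, with 95 of 96 members at 1 read or more.

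In ALKKO2 a heavy and a kappa gene stood out in the same way, but other genes than in KO2. Ighv5-9 had 4098 reads (245 CPM) in ALKKO2 and at most 135 reads (11.6 CPM, in KO2) elsewhere. Igkv4-68 had 3809 reads (228 CPM) in ALKKO2 and at most 11.3 CPM, in KO2, elsewhere. Igkv14-126 with 2577 reads and Ighv1-9 with 1616 reads came second in their classes in ALKKO2. Ighv1-9 was second in KO1 and ALKKO3 as well, with 356 and 765 reads.

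Heavy J segments set KO2 and ALKKO2 apart, but not the other thymus libraries from each other as the leading heavy V genes did. Ighj1 took 75.1% of the 1135 J reads in ALKKO2, against 3.30% to 38.5% in the 8 other thymus libraries, and Ighj2 took 72.9% of the 5849 J reads in KO2, against 16.8% to 40.2%. In the other thymus libraries no J segment took more than 40.2% of J reads, and Ighj2 led in Ctrl1, Ctrl3, KO1, KO3 and ALKKO1. The sequences of Ighj1 and Ighj2 are shown because these short segments set ALKKO2 and KO2 apart. Capitals mark where they differ over the 48 bases counted from the 3′ end, 36 of which are identical.
Ighj1 (chr12:113429781-113429833, minus strand): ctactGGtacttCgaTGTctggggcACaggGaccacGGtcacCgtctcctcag
Ighj2 (chr12:113429468-113429515, minus strand): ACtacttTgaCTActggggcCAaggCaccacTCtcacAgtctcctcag
The annotated exons of Ighj2 span 100 bases, against 48 to 54 bases for the other 3 J genes, and reads were not divided by length. A joined exon with D segments and added bases aligns only in part.

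KO2 was the library with the highest CPM for 170 of the 234 genes, including all 8 heavy and all 3 lambda constant regions, 90 of 119 Ighv and 63 of 96 Igkv genes. In 99 genes KO2 held more than 50% of the CPM summed over the 12 libraries and in 17 genes more than 90%, while in 27 genes another library alone held more than 50%. No gene had its highest CPM in an ALK library. KO2 weighed most in the choice of the genes, and 16 of them reached the minimum only with its reads. These counts therefore only describe the list.

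The question of the first comparison was how ALK lymphoma cells differ from Ctrl thymocytes. Of 234 genes, 163 passed edgeR's filter on low counts and were tested. Of these, 99 were lower in ALK and 0 higher at an adjusted p (edgeR's quasi-likelihood test, Benjamini-Hochberg over 16052 genes) under 0.05 and more than a 2-fold change, where 12% of all genes tested were called lower, 8.41% higher and 20.4% in either direction. Without adjustment 137 had a p under 0.05, as did 42.5% of all genes tested. In 156 of the 163 genes the 3 ALK values lay below the 3 Ctrl values, as they did in 25.1% of all genes tested. All but 11 of the 163 genes reached the filter's level through thymus libraries alone and could therefore hardly be higher in ALK, so these counts only describe the list. By class, 5 of 8 heavy constant, 2 of 3 lambda constant, 3 of 3 lambda V, 3 of 4 heavy J, 40 of 72 heavy V and 46 of 73 kappa V genes tested were called lower.

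Among the constant regions with reads in each ALK library, Ighg2b had the largest fitted fall. It had 332, 355 and 81.1 CPM in Ctrl and 1.68, 1.57 and 1.88 CPM in ALK, with no overlap (log2 fold change -7.22 ± 1.27 SE, adjusted p = 0.00298). Igha had 682, 603 and 309 CPM in Ctrl and 6.38, 7.86 and 8.06 CPM in ALK (log2 fold change -6.16 ± 1.43, adjusted p = 0.0105). Both were lower in every ALK mouse than in any Ctrl mouse. Ighm had 1038, 1305 and 931 CPM in Ctrl and 56.4, 23.3 and 120 CPM in ALK, a smaller fall (-4.04 ± 0.69, adjusted p = 0.00258). The fitted fall of Ighm was thus smaller than those of Ighg2b and Igha. It was close to those of Ighg1 and Ighg3 and larger than that of Ighd, all given below. Differences between these falls were not tested. Ighm remained the most abundant immunoglobulin gene in each ALK library.

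Ighg2c (log2 fold change -5.74 ± 1.42, adjusted p = 0.0137), Iglc1 (-6.32 ± 1.17, adjusted p = 0.00366) and Iglc2 (-5.92 ± 1.37, adjusted p = 0.0103) fell as well. Ighe, at 0 reads in every ALK library, was at least 14.4-fold lower (adjusted p = 0.0356), with 5.29, 3.91 and 0.863 CPM in Ctrl. Ighd (-3.24 ± 1.66, adjusted p = 0.164), Ighg1 (-4.16 ± 2.01, adjusted p = 0.14), Ighg3 (-4.08 ± 1.98, adjusted p = 0.142) and Iglc3 (-4.51 ± 1.55, adjusted p = 0.0508) did not pass the test, although none of their ALK values reached a Ctrl value. The spread behind these 4 genes includes KO2, since all 12 libraries share the model.

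The 5 called genes with the largest falls, taking the lower bound where ALK was at or under 3 reads in each library, were Igkv15-103, Ighg2b, Iglc1, Igha and Igkv1-110. Igkv15-103 was at least 198-fold lower (edgeR's quasi-likelihood test, adjusted p = 0.00376), with 7.66, 124 and 6.25 CPM in Ctrl and 1 read in 1 of 3 ALK libraries, and Ctrl2 gave most of its Ctrl mean. Ighg2b was 149-fold, Iglc1 79.7-fold, Igha 71.5-fold and Igkv1-110 67.8-fold lower by the fitted change. Igkv1-110 had 12.7, 11.6 and 23.1 CPM in Ctrl and 0.336, 0.0873 and 0.235 CPM in ALK. In 144 of the 163 genes tested the ALK libraries were all at or under 3 reads. The median log2 fold change of the genes tested was -6.19 by the fit and -3.04 with these genes at their bound, against 0.05 over all genes tested.

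Of what was left in ALK, Ighm was the largest item, with 840 of 1097 immunoglobulin reads in ALK1, 267 of 541 in ALK2 and 1531 of 1906 in ALK3. Of the 234 genes, 135 had no read in any ALK library, 215 had at most 3 reads in each and 19 had more than 3 in at least 1. Heavy constant reads numbered 1017, 455 and 1777, but heavy V reads only 37, 37 and 40. Per 1000 heavy constant reads there were 36.4, 81.3 and 22.5 heavy V reads in ALK, against 70.1 to 133 in the thymus libraries. ALK3 had 39 Ighd reads, ALK1 had 5 and ALK2 had 4. Igkv14-111 led the kappa V genes of all 3 ALK libraries with 13 reads in each, and Ighv3-6 led the heavy V genes of ALK1 and ALK2 with 7 and 19 reads.

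Some genes left in ALK were among those highest in KO2, and the ALK reads were set against the KO2 reads for the 15 genes with most reads in KO2. For every 10000 reads in KO2, the ALK libraries had 1.90 reads of Igkv14-111 each, 1.61 to 2.15 of Ighv3-2, 2.53 to 3.37 of Igkv12-46, 1.31 to 2.20 of Ighg1 and 6.31 to 7.22 of Igha. They had 2.73 to 4.70 of Ighg2c, 7.99 to 11.1 of Ighg2b, 3.13 each of Igkv8-27 and 0 to 2.49 of Ighv3-1. Wider ranges were seen for Ighg3 (2.20 to 7.71), Ighj2 (2.35 to 14.1) and Ighv9-3 (2.63 to 13.2). The same held for Ighv3-6 (2.49 to 23.7) and Ighd (5.56 to 54.2). Ighm had the highest ratio of the 15 in each ALK library, with 63.9 to 366. The part of KO2 reads in the ALK values was not tested.

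Of the B and plasma cell markers named here, 3 were called lower in ALK and 1 higher. Jchain, which joins IgM and IgA into polymers and marks antibody-secreting cells, had 235, 261 and 101 CPM in Ctrl and 1.88, 2.79 and 3.28 CPM in ALK (log2 fold change -6.23 ± 1.29, adjusted p = 0.0062). Cd79b, a signaling chain of the B cell receptor, had 23.8, 17.4 and 24.7 CPM in Ctrl and 2.02, 0.611 and 2.58 CPM in ALK (adjusted p = 0.0362). Mzb1, a chaperone of antibody assembly, fell too (-4.58 ± 1.42, adjusted p = 0.0344). Cd79a, the partner of Cd79b, Ms4a1, which encodes CD20, Pax5, a B lineage transcription factor, and Fcmr, the receptor for IgM, did not pass the test (edgeR's quasi-likelihood test, adjusted p = 0.129, 0.0537, 0.0746 and 0.0775), although none of their ALK values reached a Ctrl value. Sdc1, whose product syndecan-1 is a plasma cell marker also made by other cells, rose from 21.1, 16.0 and 24.2 CPM to 57.04, 47.5 and 27.4 CPM (1.11 ± 0.35, adjusted p = 0.0371).

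**Figure D5:**
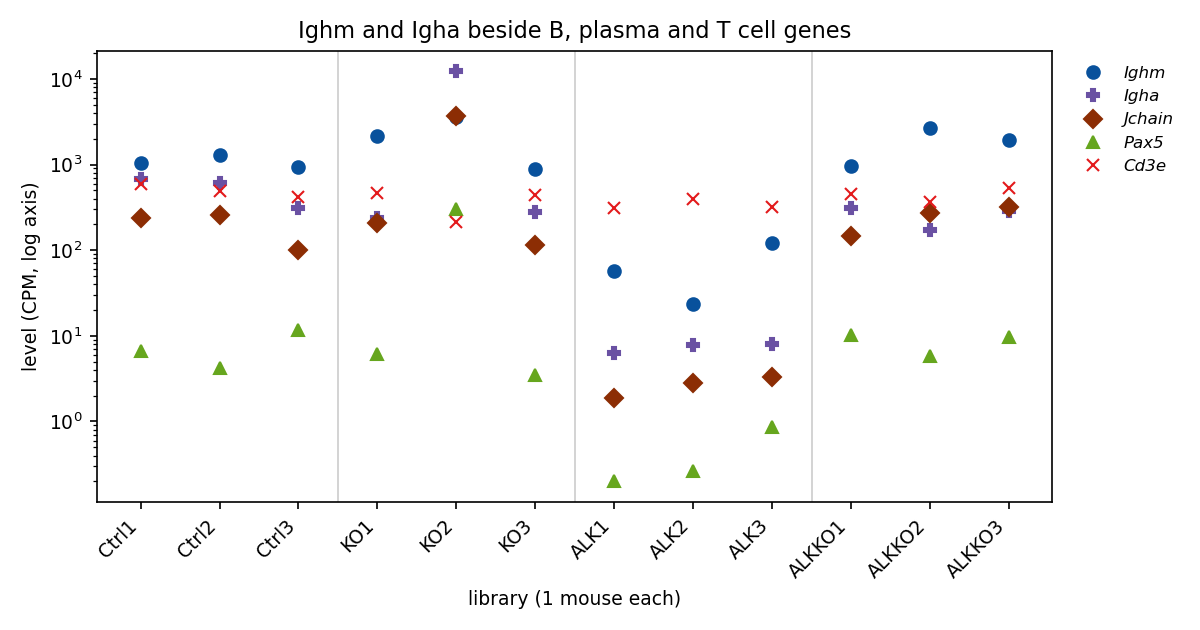
Level of Ighm and Igha beside the B cell gene Pax5, the plasma cell gene Jchain and the T cell gene Cd3e in each library, in CPM on a log axis. Jchain and Pax5 stand highest in KO2 and lowest in the 3 ALK libraries, as Igha does, while Cd3e is lowest in KO2.

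The lists are to be read beside the 12% of all genes tested that were called lower in ALK and the 8.41% called higher. Of the 17 B cell markers tested, 4 were called lower in ALK and 0 higher (Blk, Cd79b, Fcer2a and Spib), and of the 10 plasma cell markers 4 were called lower (Irf4, Jchain, Mzb1 and Xbp1) and Sdc1 higher. Of 11 class switch and germinal center genes tested, 7 were lower (Aire, Bcl6, Cd40, Cd80, Cd86, Fas and Gcsam) and Ung higher; most of the 7 are also made by thymic epithelial, dendritic or T cells. Of the 10 thymic epithelial markers 7 were lower, of 9 dendritic cell markers 6 and of 15 T cell markers 7, while 2 of 8 stromal markers were higher (Col1a1 and Col3a1), 1 of 9 myeloid markers was lower (Mpo) and 0 of 5 erythroid markers were called. The B cell markers summed to between 148 and 226 CPM in Ctrl and to 35.3, 48.1 and 75.5 CPM in ALK. The thymic epithelial markers summed to between 2115 and 2404 CPM in Ctrl and between 94.0 and 222 CPM in ALK. The part of these cells in the immunoglobulin differences was not tested.

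For recombination itself, Rag1 was listed at 0 in all libraries and lies, like Igkc, inside another gene on its strand, and Rag2, its partner, was called lower in ALK. Vpreb1, a part of the surrogate light chain of B cell precursors, lay between 1.13 and 2.47 CPM in Ctrl and between 0.0672 and 1.33 CPM in ALK (adjusted p = 0.213), and Igll1, its partner, had at most 0.647 CPM in any library. The same 12% and 8.41% of all genes tested apply to the remaining lists. Of 18 B cell receptor signaling genes 4 were called lower (Blk, Cd79b, Malt1 and Syk), and of 10 receptors for immunoglobulin 2 lower (Fcer2a and Pigr) and 1 higher (Fcgr4). Of 15 transcription factors of immunoglobulin genes 4 were called lower (Irf4, Relb, Spib and Xbp1) and 1 higher (Tcf4). Of 11 recombination and joining genes Rag2 was lower and Xrcc5 higher, and of 5 early B cell genes Rag2 was lower and Cd93 higher. Fcgr2b, the inhibitory receptor for IgG, lay between 13.2 and 20.5 CPM in Ctrl and between 36.6 and 57.6 CPM in ALK (adjusted p = 0.0611).

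The comparison of KO with Ctrl asked what deletion of Dnmt1 alone changes. Of the 163 genes, 0 were called in either direction by edgeR's quasi-likelihood test, where 0.0187% of all genes tested were called. Without adjustment 45 had a p under 0.05, as did 5.52% of all genes tested. In the fit without KO2, 18 of 165 had one. DESeq2's Wald test called 2 genes higher, Ighv1-12 and Igkv3-2, and left 32 of the 163 without an adjusted p. No share over all genes is given for DESeq2 or for the fit without KO2. In 14 genes KO lay above Ctrl without overlap and in 0 below, where 6.19% and 6.24% of all genes tested did so. The fit gave 150 positive changes with a median log2 fold change of 1.75, but without KO2 74 of 165 genes were positive and the median was -0.10. Over all 16052 genes tested in the main fit, 8827 changes were positive and the median was 0.04. Ighm had 2179, 3601 and 890 CPM in KO against 931 to 1305 CPM in Ctrl, so that the groups overlapped. Ighg1 had 42.8, 12508 and 11.5 CPM in KO and 32.1, 56.0 and 10.4 CPM in Ctrl, and KO1 and KO3 lay within the range of Ctrl.

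KO2 also differed from its group in the other cells of the sample. Pax5 had 304 CPM in KO2 and 3.51 to 11.6 CPM in the 8 other thymus libraries, and Ms4a1 had 383 against 6.43 to 14.5 CPM. Jchain had 3730 CPM against 101 to 316 CPM and Mzb1 241 against 5.39 to 17.2 CPM. Cd3e, a chain of the T cell receptor complex, had 213 CPM in KO2 against 363 to 587 CPM. The 9 myeloid markers with reads summed to 2734 CPM against 649 to 969 CPM, and the 6 erythroid markers to 2427 CPM against 150.2 to 1907 CPM. B cell, plasma cell and myeloid sums thus stood above, and T cell and thymic epithelial sums below, those of the 8 other thymus libraries. Their part in its values was not tested, and its sex and its library cannot be told apart. Cd79a had 299 CPM in KO2 against 4.77 to 12.2 CPM, whereas Vpreb1 had 0.344 CPM in KO2, below the 8 other thymus libraries.

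The comparisons of ALKKO addressed how the transgene acts in thymocytes without Dnmt1. Set against Ctrl, none of the 163 genes (0) passed edgeR's quasi-likelihood test, where 0.181% of all genes tested were called, nearly all of them higher (0.174%). Without adjustment 21 had a p under 0.05, as did 3.18% of all genes tested, and DESeq2 called Ighv1-47 higher and Igkv15-103 lower. It left 32 of the 163 genes without an adjusted p, and no share over all genes is given for it. ALKKO lay above Ctrl without overlap in 17 of the 163 genes and below it in 5, where 9.92% and 7.56% of all genes tested did so. Ighm had 965, 2644 and 1932 CPM in ALKKO, with a log2 fold change of 0.76 ± 0.61 against Ctrl (edgeR, adjusted p = 0.9998), and Igha had 313, 172 and 288 CPM. Against KO, 0 genes were called by edgeR or DESeq2, where edgeR called 0.00623% of all genes tested, and 35 had an unadjusted p under 0.05, as did 2.69% of all genes tested. In 1 gene ALKKO lay above KO without overlap and in 5 below, where 4.09% and 2.24% of all genes tested did so. The median log2 fold change against KO was -1.20 and 0.69 without KO2, so its direction was set by 1 mouse. Over all genes tested in the main fit it was -0.02.

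Against ALK, 118 of the 163 genes were called higher in ALKKO and 0 lower, where 12.6% of all genes tested were called higher and 7.03% lower; as in the first comparison, nearly all of these genes had passed the filter through thymus libraries. Both comparisons share the ALK libraries. The median log2 fold change was 6.69 by the fit and 3.75 with the 144 genes at or under the floor in ALK at their bound, against -0.03 over all genes tested. Ighm (log2 fold change 4.80 ± 0.71, adjusted p = 0.00154), Ighg2b (8.69 ± 1.35, adjusted p = 0.0018), Ighg2c (7.23 ± 1.51, adjusted p = 0.00674) and Igha (5.11 ± 1.37, adjusted p = 0.0197) were higher, as were Ighg3, Ighe, Iglc1, Iglc2 and Iglc3. Ighd (adjusted p = 0.199) and Ighg1 (adjusted p = 0.0644) did not pass the test. The 5 largest rises were those of Ighg2b (413-fold), Ighv5-9 (at least 354-fold), Igkv4-68 (at least 332-fold), Ighv1-9 (263-fold) and Igkv14-126 (at least 229-fold). Of these, Ighv5-9, Igkv4-68 and Igkv14-126 rested on ALKKO2, which had 245, 228 and 154 CPM, against at most 1.60, 2.81 and 3.77 CPM in ALKKO1 and ALKKO3; without ALKKO2 the call of Ighv5-9 was lost, and those of the other 2 were kept. Ighg2b, with 277, 1404 and 450 CPM, was high in all 3 ALKKO mice.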

How the data were processed

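The authors prepared stranded poly(A) libraries, sequenced single-end reads of 50 bases, trimmed them, aligned them to mm10 with STAR and deposited raw counts per gene from HTSeq, without normalization. Versions of these tools are not given in the sources used here. Only uniquely placed reads are counted, so near-identical V genes are counted in part, and nested genes on 1 strand were nearly all at 0, as when whole gene bodies are counted. Mutated or junction-spanning reads of rearranged segments may be lost. Gene IDs were matched to GENCODE M21 on GRCm38 (50376 of 50600). The 234 genes and the gene lists were chosen with earlier results of these data known. All 12 libraries, depth 12473857 to 18864327 counts, entered 1 edgeR 4.0.16 fit (R 4.3.3, TMM, filterByExpr, robust glmQLFit, glmQLFTest). The floor of 3 counts was 0.159 to 0.262 CPM per library; floors and Wilson intervals take in counting error alone. DESeq2 1.42.0 was an alternative, as were other filters, covariates and libraries left out. The fits were tested on simulated data. Named were all constant regions, the leading V genes per library, the 5 called genes with the largest change each way, genes at the threshold and preset marker genes; other genes were named after their values were seen. Replicates differed by more than sampling noise.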

Additional observations from a re-analysis of the deposited data

Results flagged for a closer look

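Sdc1, a plasma cell marker that other cells also make, lay on opposite sides in both comparisons of mice with and without the transgene. Constant regions, leading V genes, some other named genes and the immunoglobulin sum were scanned for this pattern, and only Sdc1 showed it. Of all genes tested, 21.3% lay higher in ALK than in Ctrl without overlap and 2.24% lower in ALKKO than in KO. Every ALK mouse (57.04, 47.5 and 27.4 CPM) lay above every Ctrl mouse (16.0 to 24.2 CPM), and every ALKKO mouse (14.5, 14.2 and 18.2 CPM) lay below every KO mouse (25.3, 45.04 and 19.1 CPM), with an ALKKO mean of 0.524 times the KO mean. Only the first difference passed edgeR's quasi-likelihood test (adjusted p = 0.0371, against 0.9998 for ALKKO and KO), the KO mean includes KO2, and ALK samples are lymphoma cells rather than thymocytes. The difference between these effects was not tested.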

How the results depend on the processing

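Counts of calls changed most with a strict filter. With at least 10 counts in every library only 6 immunoglobulin genes remained to be tested, of which 4 were lower in ALK than in Ctrl and 4 higher in ALKKO than in ALK. DESeq2's Wald test called 2 genes in KO against Ctrl and 2 in ALKKO against Ctrl, where edgeR called 0. In the other settings, with no library left out of the groups compared, 79 to 129 genes were lower in ALK than in Ctrl and 85 to 140 higher in ALKKO than in ALK, and, apart from DESeq2, 0 were called in the other 3 comparisons. The number of members tested differed between settings. In ALK against Ctrl it ran from 94 with only the 2 groups compared (96.8% called) to 234 without a low-count filter (38.9%). The main fit called 60.7% of 163. In ALKKO against ALK the same settings called 91.3% of 104 and 43.2% of 234, and the main fit 72.4% of 163. Shares over all genes are given for the main fit only. Leaving out 1 library of the groups compared, or KO2, gave 64 to 131 lower genes in ALK against Ctrl and 79 to 140 higher genes in ALKKO against ALK. In ALK against Ctrl the share of members tested ran from 33.9% of 189 (without ALK2) to 79.4% of 165 (without KO2). In ALKKO against ALK it ran from 41.8% to 84.8% in the same runs. By count, only the run without ALK2, with 64 lower genes in ALK, lay beyond 1.5 times the main fit. By share, further runs lay beyond it, such as 38.8% of 178 without Ctrl1 in ALK against Ctrl. KO2 was in neither group, and leaving it out, chosen after seeing the data, gave 131 and 140. With 1 library left out, the log2 fold change of Ighg1 in KO against Ctrl ranged from -0.27 (without KO2) to 7.61, that of Ighm in ALKKO against KO from -0.64 to 0.27 (without KO2; 0.05 without ALKKO1) and that of Ighg1 in ALKKO against KO from -6.07 to 1.97 (without KO2). With sex as a covariate, which only KO2 sets, they were -0.27, 0.27 and 1.96. No other fold change computed for a named gene changed its sign under any alternative run. Calls were less stable than signs. Over these genes, comparisons and runs, the call was lost 53 times with 1 library left out and 26 times in other settings. It was gained 9 and 14 times and stayed as in the main fit 245 and 271 times. The mean immunoglobulin sum of KO was 2886 to 30151 CPM with 1 library left out, that of Ctrl 2306 to 3052, of ALK 60.5 to 111 and of ALKKO 3766 to 5528 CPM. Replicate numbers did not pair the samples (correlations of same-numbered deviations -0.11 to 0.43, 5 of 12 libraries closest to their own number). With the replicate block 89 genes were lower in ALK than in Ctrl, 105 higher in ALKKO than in ALK and 0 called elsewhere. Using all matching symbols could not move the isotype shares, because all 8 annotated heavy constant genes were already members. Lambda shares stayed within their intervals with all matching symbols. They could hardly have moved, since all 3 lambda V genes were members and the added kappa V genes had under 10 reads each. With 3 mice per group, genes under the floor of 3 counts in ALK give bounds only.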
